A study of Mus musculus with 9 samples.

Results

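The genes described here encode the mitochondrial respiratory chain, ATP synthase and the factors that assemble them, in tumours and normal cortex of the mouse kidney. They are the rows of the count table whose mouse symbol starts with Nduf, Uqcr or Atp5, is Sdha, Sdhb, Sdhc, Sdhd, Cyc1, Cycs, Sco1, Sco2 or Surf1, or starts with Cox or Coa and a digit. This gave 84 of 14052 genes, and Cycs and Sco2 were not analysed here. The tumour group holds 5 areas of renal cortex tumours (L4, R2, R3, R4, R5) in mice whose Vhl and Pbrm1 alleles are floxed and which carry the Ksp-Cre transgene, on a mixed C57BL/6, BALB/c and 129 background. The transgene's promoter, Ksp, belongs to the tubule cadherin gene Cdh16, so cells of other lineages in a tumour area need not carry the deletions. The normal group holds 4 areas, L1, L2, R1 and R2, of kidney cortex from wild-type C57BL/6 mice. All mice were about 1 year old and had a normal diet. Strain and group cannot be told apart, and the descriptions give 1 number to all tumour areas and 1 to all normal areas, so each group may be a single animal. The p-values then measure only the spread between areas.

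The respiratory chain sits in the inner mitochondrial membrane. Complexes I and II take electrons from NADH and succinate, complex III passes them on to cytochrome c, complex IV hands them to oxygen, and ATP synthase, complex V, uses the proton gradient that complexes I, III and IV build. Tubule cells of the kidney cortex are rich in mitochondria because the transport of salt and solutes consumes much ATP. Some subunits of complex IV come in isoforms that differ between tissues or with the oxygen supply.

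Counted reads per library ranged from 5143527 to 8250261, and the members took up 0.764% to 0.861% of them in tumour areas and 0.722% to 0.745% in normal areas. Vhl, a deleted gene which encodes the recognition subunit of the ubiquitin ligase for HIF alpha proteins, was lower in tumour (log2 fold change -0.79, adjusted p = 0.000248 in edgeR), and Pbrm1, the other deleted gene, had a log2 fold change of -0.19 (adjusted p = 0.142 in edgeR). Apart from Pvalb, a distal tubule marker with no count in any library, the kidney tubule markers analysed here were counted in all areas. The 9 proximal tubule markers summed to 30830 to 33040 CPM (counts scaled to a common library size after TMM adjustment) in normal areas and 8232 to 16000 CPM in tumour areas, and all 9 were lower. Thick limb and distal tubule markers were lower in 3 of 4 tested, with sums of 10100 to 10370 CPM in normal and 1493 to 6693 CPM in tumour areas. Collecting duct markers were lower in 3 of 3 tested (531 to 564.2 and 33.9 to 168.3 CPM). Both of these sums were lowest in R2. Leukocyte genes were higher: 3 of 3 tested B and plasma cell markers, 3 of 3 tested T and NK cell markers and 3 of 4 macrophage markers passed in edgeR. For all these marker counts, the shares over all 7020 tested genes were 39.3% higher and 35.3% lower. In bulk RNA, fewer cells of a type and less RNA per cell cannot be told apart.

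Of the 84 members, 26 had no count in any library, 13 had counts but too few to be tested, and 45 passed the filter on low counts. The 26 include genes that every respiring cell uses, such as Cox4i1, Atp5a1 and Uqcrc1, so a 0 here says nothing of whether a gene was expressed. All 6 members with 1 annotated transcript were tested, against 15 of 24 with 2 or 3 and 24 of 54 with 4 or more, while over all genes of the table the tested share was 34.1%, 47.1% and 54.4% in the same classes. Whether counts cover the whole of a gene was not tested, and levels were not compared between genes. The 13 with few counts were Ndufa12, Ndufb4, Ndufb6, Ndufs5 and Ndufab1 of complex I, Uqcrq and Uqcr10 of complex III, Cox16, Sco1 and Surf1 of complex IV, and Atp5g2, Atp5j2 and Atp5l of complex V, with 1 (Ndufa12, Atp5g2) to 103 counts (Atp5l) over all 9 areas.

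Fold changes between tumour and normal cortex were small for most tested members, while a few genes of complex IV moved strongly. Of the 45 tested members 10 were higher and 10 lower in tumour (edgeR, threshold 0.05 on the adjusted p), together 44.4%. Among all 7020 tested genes 74.6% passed, 39.3% higher and 35.3% lower. The median log2 fold change (tumour over normal) was 0.02 over the members and 0.06 over all tested genes, and the median size of the change, whatever its sign, was 0.24 and 0.59. Changes of at least 2-fold were seen in 3 members (6.67%), all of them tissue or stress isoforms of a complex IV subunit, and in 30.1% of all tested genes. The groups did not overlap in 15 members, 6 with every tumour area above and 9 with every tumour area below all normal areas, while 67.8% of all tested genes had no overlap. In a plot of the fold changes by complex the members lie close around 0 apart from those 3.

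**Figure D1:**
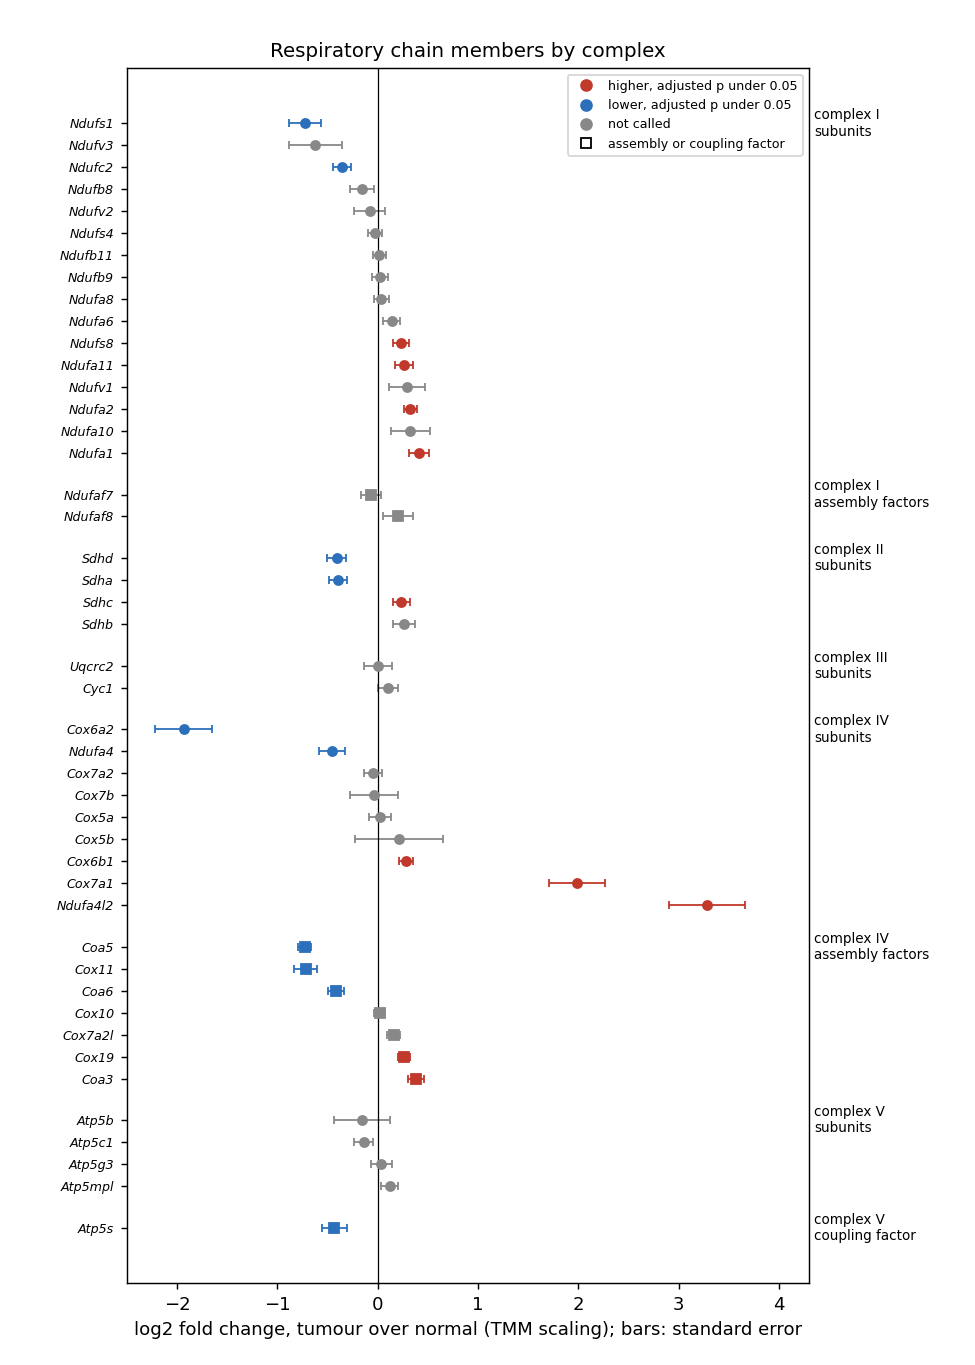
Log2 fold change (tumour over normal, x axis) of each of the 45 tested members with its standard error, grouped by complex, with circles for subunits, squares for assembly or coupling factors, and colour for the edgeR call. All members other than Cox6a2, Cox7a1 and Ndufa4l2 lie between -0.73 and 0.41.

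These directions depend on how libraries are scaled. With library size alone 28 members were higher and 4 lower, against 53.2% and 24.1% of all tested genes, since that scaling moved the median fold change of all genes by 0.29 on the log2 scale. The 4 were Ndufs1, Cox6a2, Coa5 and Cox11. Under RLE factors the counts were 10 and 11, and under upper quartile factors 13 and 10. All changes below are relative to TMM scaling. The ratio of one member to another within an area does not depend on it.

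**Figure D2:**
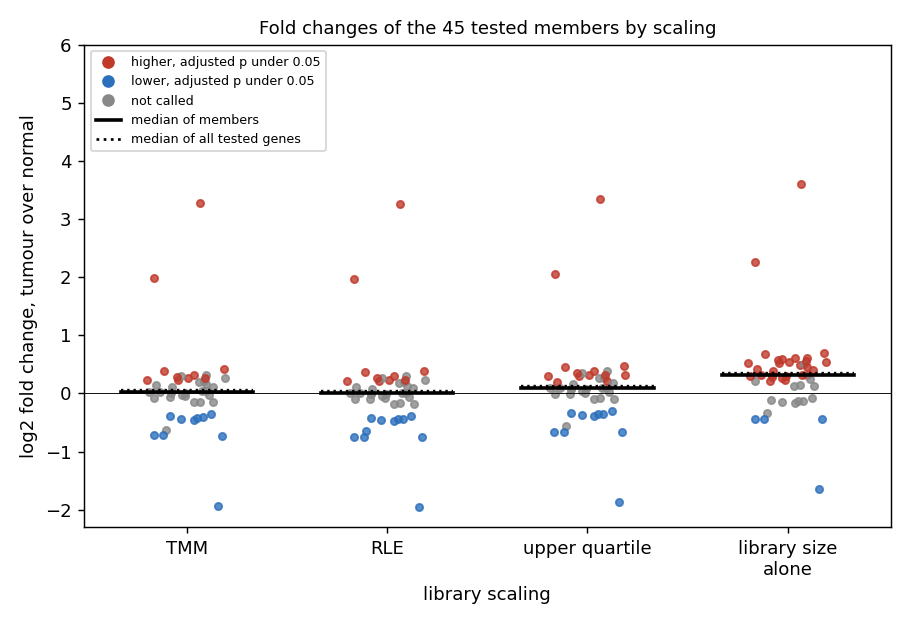
Log2 fold changes (y axis) of the 45 tested members under each of 4 library scalings (x axis), coloured by the edgeR call, with the median of the members as a solid line and that of all tested genes as a dotted line. Both medians rise together, to 0.31 and 0.35, when library size alone is used.

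Complex I, the NADH dehydrogenase, had 35 members, of which 16 subunits and 2 assembly factors were tested. Among the subunits 4 were higher (Ndufa1, Ndufa2, Ndufa11, Ndufs8), 2 lower (Ndufs1, Ndufc2) and 10 did not pass. The shares over all tested genes were 39.3% higher and 35.3% lower. Ndufs1 encodes the largest core subunit, which carries iron-sulfur clusters of the matrix arm. Its levels were 23.9 (L4), 24.5 (R2), 37.4 (R3), 41.4 (R4) and 31.8 (R5) CPM in tumour areas and 48.9 (L1), 52.9 (L2), 56.1 (R1) and 51.8 (R2) CPM in normal areas. Every tumour area lay below every normal area, with L4 and R2 lowest (log2 fold change -0.72 ± 0.16 SE, adjusted p = 0.00188 in edgeR). In Ndufa1, a small subunit of the membrane arm, the order was the reverse. Ndufa1 stood at 38.1 (L4), 50.8 (R2), 45.4 (R3), 49.95 (R4) and 42.2 (R5) CPM in tumour areas and 32.0 (L1), 36.7 (L2), 33.6 (R1) and 33.4 (R2) CPM in normal areas. All tumour areas were above all normal areas (0.41 ± 0.10, adjusted p = 0.00296 in edgeR).

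Ndufa2, of the same matrix arm as Ndufs1, went from 128 ± 1.66 CPM (SD, n = 4) to 160 ± 13.1 CPM (SD, n = 5), also without overlap (0.32 ± 0.06). The core iron-sulfur subunit Ndufs8 (0.24 ± 0.08) and the membrane subunit Ndufa11 (0.26 ± 0.09) were higher with overlapping groups, and each lost its call without normal area L1 or L2. Ndufc2, another membrane subunit, was lower (-0.36 ± 0.09) with overlapping groups. It lost its call with library size alone and when only areas of letter R were compared. The log2 ratio of Ndufa2 to Ndufs1 counts was 1.19 to 1.37 in normal and 2.07 to 2.67 in tumour areas, a 2.10-fold difference that no scaling alters. This pair was picked after its values were seen and was not tested. In the matrix arm 2 of 8 tested subunits were higher and 1 lower, and the same counts held for the 8 tested subunits of the membrane arm. Both shares are below those of all tested genes, 39.3% higher and 35.3% lower.

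The 10 uncalled subunits ran from -0.62 (Ndufv3) to 0.33 (Ndufa10). Ndufv3, an accessory subunit next to the NADH site, fell short at an adjusted p of 0.0533 in edgeR and passed with RLE factors, in DESeq2, and without tumour R2, tumour R4 or normal L2. The flavoprotein subunits Ndufv1 (0.29) and Ndufv2 (-0.08) did not pass. Ndufs4, Ndufb9, Ndufb11 and Ndufa8 lay between -0.03 and 0.03, with standard errors of 0.06 to 0.08. The assembly factors Ndufaf7, a methyltransferase that acts on a core subunit, and Ndufaf8 stood at -0.07 ± 0.10 and 0.20 ± 0.15. Ndufaf4, Ndufaf5 and Ndufaf6 had no count.

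Complex II, succinate dehydrogenase, has 4 nuclear subunits and all were tested, and they split in opposite directions. Sdha, the flavoprotein that oxidises succinate, was at 378 (L4), 413 (R2), 493 (R3), 523 (R4) and 479 (R5) CPM in tumour areas and 581 (L1), 591 (L2), 615 (R1) and 614 (R2) CPM in normal areas. No tumour area reached the normal range (-0.39 ± 0.09, adjusted p = 0.00272 in edgeR). Sdhd, a membrane anchor that binds haem and ubiquinone, was at 717 (L4), 792 (R2), 1019 (R3), 969 (R4) and 883 (R5) CPM against 1136 (L1), 1168 (L2), 1182 (R1) and 1168 (R2) CPM in normal areas. The groups again did not overlap (-0.41 ± 0.10, adjusted p = 0.00336 in edgeR). Neither Sdha nor Sdhd was called with library size alone (-0.11 and -0.13).

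The other anchor, Sdhc, was higher (0.24 ± 0.09, adjusted p = 0.0316 in edgeR), with L4 below and the other tumour areas above the normal range. That call was lost with the area letter as a covariate and without tumour R3 or R4 or any one normal area. Sdhb, the iron-sulfur subunit, stood at 111 (L4), 158 (R2), 162 (R3), 165 (R4) and 151 (R5) CPM in tumour areas and 117 (L1), 119 (L2), 134 (R1) and 129 (R2) CPM in normal areas. Apart from L4, all tumour areas lay above the normal range (0.26 ± 0.11, adjusted p = 0.0505 in edgeR, and 0.36 with a call when L4 was left out). The log2 ratio of Sdhb to Sdha was -2.32 to -2.20 in normal and -1.77 to -1.38 in tumour areas. That of Sdhc to Sdhd was -2.83 to -2.76 and -2.27 to -1.99. Both ratios were 1.57-fold higher in tumour without overlap, L4 included. They were chosen after the values were seen and were not tested.

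Complex III, which oxidises ubiquinol, had 6 members, and the 2 tested ones did not pass. Cyc1, cytochrome c1, stood at 396 (L4), 542 (R2), 552 (R3), 575 (R4) and 497 (R5) CPM in tumour areas and 474 (L1), 471 (L2), 477 (R1) and 483 (R2) CPM in normal areas. The tumour areas lay on both sides of the narrow normal range (0.11 ± 0.10, adjusted p = 0.345 in edgeR), with L4 alone below it, and without L4 the difference passed (0.20). Uqcrc2, a core subunit, stood at 40.8 (L4), 46.5 (R2), 63.2 (R3), 63.7 (R4) and 61.9 (R5) CPM against 57.6 (L1), 50.3 (L2), 59.5 (R1) and 52.4 (R2) CPM. L4 and R2 were below and the other three tumour areas above all normal areas (0.01 ± 0.14).

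Complex IV, cytochrome c oxidase, held the largest changes in both directions. The protein of Ndufa4, once counted to complex I, is a subunit of complex IV, so Ndufa4 and its paralog Ndufa4l2 are placed here. Placed by symbol, they would bring complex I subunits to 5 higher and 3 lower of 18, and leave complex IV subunits at 2 and 1 of 7. As placed, 3 of 9 tested subunits were higher, 2 lower and 4 uncalled, beside 39.3% higher and 35.3% lower among all tested genes.

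Ndufa4l2, known as a target of the hypoxia-inducible factor HIF1 that lowers mitochondrial oxygen use, rose 9.73-fold. It stood at 255 (L4), 123 (R2), 88.2 (R3), 81.2 (R4) and 97.2 (R5) CPM in tumour areas and 14.5 (L1), 11.05 (L2), 14.1 (R1) and 13.8 (R2) CPM in normal areas. Even the lowest tumour area was several times above the highest normal one, and L4 stood apart at the top (3.28 ± 0.37 SE, adjusted p = 1.97e-05 in edgeR). Without L4 the log2 fold change was 2.89. Its exons overlap those of Shmt2, a mitochondrial enzyme of serine use, on the opposite strand in a later annotation, and the library kit does not keep the strand. Shmt2 was higher too (0.82 ± 0.14, from a mean of 513 to 909 CPM), and the part of overlapping reads in the result was not tested.

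Ndufa4 moved the other way. It stood at 251 (L4), 238 (R2), 365 (R3), 354 (R4) and 340 (R5) CPM in tumour areas and 416 (L1), 418 (L2), 431 (R1) and 431 (R2) CPM in normal areas. All tumour areas lay below the normal ones, L4 and R2 most of all (-0.45 ± 0.13, adjusted p = 0.00803 in edgeR), and with library size alone the difference was not called (-0.17). Within an area, the log2 ratio of Ndufa4l2 to Ndufa4 counts rose from -4.96 ± 0.17 (SD, n = 4) to -1.38 ± 0.91 (SD, n = 5), a 12.0-fold difference (p = 0.00794 in a 2-sided exact permutation test over areas, the smallest p it can give, and 0.00794 adjusted over 2 pairs). That p was set in advance, because the groups did not overlap in either gene and the 2 genes moved in opposite directions. It adds nothing to the calls of the 2 genes. The ratio was highest in L4, at 0.02.

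Cox7a1, the form of subunit VIIa found in heart, skeletal muscle and brown fat, rose 3.96-fold from a low level. It stood at 4.32 (L4), 10.2 (R2), 7.08 (R3), 7.99 (R4) and 5.94 (R5) CPM in tumour areas and 1.298 (L1), 2.05 (L2), 1.83 (R1) and 1.82 (R2) CPM in normal areas. Each tumour area was above each normal area (1.98 ± 0.28, adjusted p = 9.5e-05 in edgeR, 225 counts in tumour and 41 in normal areas). The brown fat genes Ucp1 and Cidea reached a sum of 67.8 CPM in L4 and 60.9 CPM in R5, the lowest tumour areas for Cox7a1, and were at 0 in R2, the highest. Of 6 muscle markers, Myh4 was at 0 throughout, and their sum did not exceed 2.92 CPM in any area. The part of brown fat or muscle in the Cox7a1 values was not tested.

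Cox7a2, the common form of subunit VIIa, stood at 268 (L4), 299 (R2), 357 (R3), 359 (R4) and 343 (R5) CPM in tumour areas and 322 (L1), 338 (L2), 350 (R1) and 332 (R2) CPM in normal areas. The groups overlapped (-0.05 ± 0.09, adjusted p = 0.646 in edgeR). The log2 ratio of Cox7a1 to Cox7a2 went from -7.32 ± 0.16 (SD, n = 4) to -5.50 ± 0.41 (SD, n = 5), a 3.54-fold rise (p = 0.00794 in the same exact permutation test, 0.00794 adjusted over the 2 pairs). That p too is the smallest the test can give. It was set in advance by Cox7a1, whose groups lay further apart, in fold terms, than the range of Cox7a2 over all areas. It adds nothing to the call of Cox7a1.

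Cox6a2, the heart and muscle form of subunit VIa, fell 3.82-fold. It stood at 0.974 (L4), 1.34 (R2), 0.545 (R3), 0.726 (R4) and 0.609 (R5) CPM in tumour areas and 3.68 (L1), 3 (L2), 2.49 (R1) and 4.05 (R2) CPM in normal areas. The groups did not overlap (-1.93 ± 0.28, adjusted p = 0.000116 in edgeR), although only 27 counts in tumour and 74 in normal areas lie behind it. So of the 2 muscle forms tested, Cox7a1 rose and Cox6a2 fell. Cox6a1, Cox6b2, Cox4i1 and Cox4i2 had no count, so no ratio could be formed with them.

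**Figure D3:**
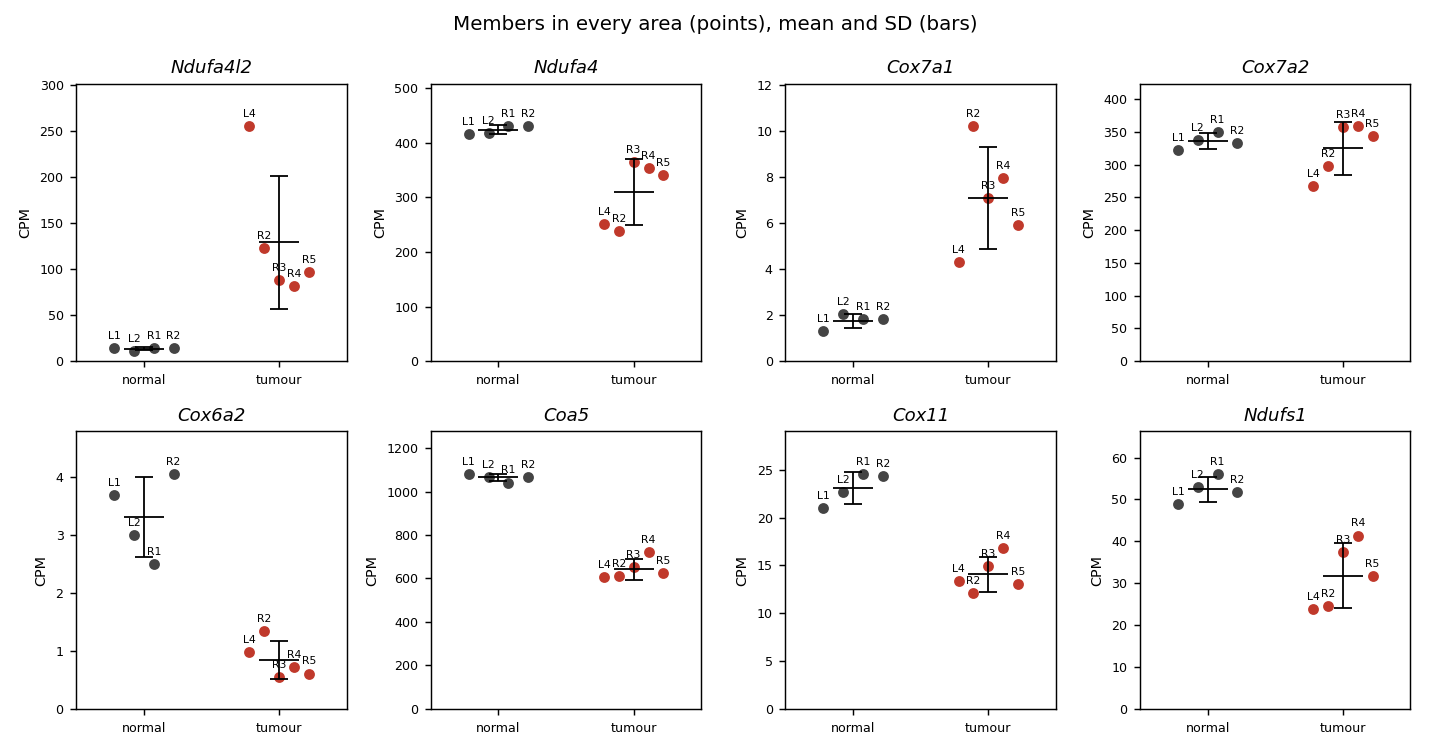
CPM (y axis, from 0) in each area for 8 members, with points labelled by area, the mean as a long bar and the SD as whiskers, for 4 normal and 5 tumour areas. Ndufa4l2 and Cox7a1 lie higher in every tumour area and Ndufa4, Cox6a2, Coa5, Cox11 and Ndufs1 lower, while Cox7a2 overlaps.

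The promoters of the isoform pair Cox7a1 and Cox7a2 are shown because one rose and the other did not pass, with those of Ndufa4 and of Coa5, the called assembly factor with the lowest fold change. Each run is the 250 bases before the annotated start, 5′ to 3′ on the gene's strand, from RefSeq on GRCm38.p6. Capitals mark the motifs searched on both strands: the hypoxia response core in its forms ACGTG and GCGTG, the NRF1 motif TGCGCA, the ETS site CCGGAAG to which GABP binds, and the TATA box TATAAA. The motifs may overlap each other.
Cox7a1, chr7:30183921-30184170, plus strand: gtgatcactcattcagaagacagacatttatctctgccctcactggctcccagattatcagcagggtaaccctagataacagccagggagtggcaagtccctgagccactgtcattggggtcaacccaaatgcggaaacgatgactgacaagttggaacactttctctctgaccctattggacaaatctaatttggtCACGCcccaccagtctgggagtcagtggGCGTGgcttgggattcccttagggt
Cox7a2, chr9:79759854-79760103, minus strand: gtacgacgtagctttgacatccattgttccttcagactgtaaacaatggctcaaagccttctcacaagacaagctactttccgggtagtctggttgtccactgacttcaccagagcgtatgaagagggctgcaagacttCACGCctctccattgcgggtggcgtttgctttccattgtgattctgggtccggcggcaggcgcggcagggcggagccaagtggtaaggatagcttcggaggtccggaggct
Ndufa4, chr6:11907451-11907700, minus strand: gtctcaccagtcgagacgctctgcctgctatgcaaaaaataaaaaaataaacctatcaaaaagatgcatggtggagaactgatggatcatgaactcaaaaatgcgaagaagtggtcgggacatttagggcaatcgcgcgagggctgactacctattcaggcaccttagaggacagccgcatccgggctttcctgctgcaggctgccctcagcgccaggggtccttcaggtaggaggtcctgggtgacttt
Coa5, chr1:37430104-37430353, minus strand: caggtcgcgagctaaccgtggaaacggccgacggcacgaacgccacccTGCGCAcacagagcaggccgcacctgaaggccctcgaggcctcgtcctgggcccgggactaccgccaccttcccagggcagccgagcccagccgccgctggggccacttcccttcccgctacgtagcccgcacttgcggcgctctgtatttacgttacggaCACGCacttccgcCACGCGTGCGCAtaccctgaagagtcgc
Cox7a1 held GCGTG at 2 places and Cox7a2 at 1, counting both strands, and neither held the other motifs. Coa5 held GCGTG at 3 places and TGCGCA at 2, partly overlapping. No letters of these motifs stood in the Ndufa4 window. Of 84 members, 64 had 67 promoter entries, with no entry for Ndufa4l2. ACGTG was found in 19.4% of them and in 16.6% of all 32851 entries, GCGTG in 40.3% and 28.2%, TGCGCA in 17.9% and 6.43%, CCGGAAG in 20.9% and 6.91%, and TATAAA in 10.4% and 12.4%. A match describes letters only and is not a bound site.

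The remaining subunits of complex IV had smaller fold changes. Cox6b1, which links the monomers of the enzyme, was higher (0.28 ± 0.07, adjusted p = 0.00493 in edgeR). It stood at 311 (L4), 391 (R2), 389 (R3), 400.4 (R4) and 372 (R5) CPM against 307 (L1), 304 (L2), 312 (R1) and 302 (R2) CPM in normal areas, so that L4 alone fell inside the normal range. Cox5a (0.02 ± 0.11), Cox5b (0.21 ± 0.44) and Cox7b (-0.03 ± 0.24) did not pass, the last 2 from under 5 CPM.

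Of 7 tested assembly factors of complex IV 2 were higher and 3 lower, against 39.3% and 35.3% of all tested genes. Coa5, needed for an early step of assembly, stood at 606 (L4), 609 (R2), 654 (R3), 723 (R4) and 625 (R5) CPM in tumour areas and 1082 (L1), 1068 (L2), 1042 (R1) and 1068 (R2) CPM in normal areas. The groups lay far apart (-0.73 ± 0.06, adjusted p = 3.25e-06 in edgeR). Cox11, which delivers copper to the core subunit encoded by mitochondrial DNA, stood at 13.4 (L4), 12.1 (R2), 14.9 (R3), 16.8 (R4) and 13.1 (R5) CPM in tumour areas and 21.0 (L1), 22.6 (L2), 24.6 (R1) and 24.3 (R2) CPM in normal areas. Again no area overlapped (-0.72 ± 0.11, adjusted p = 0.000213 in edgeR). Coa6, another factor of copper delivery, fell by 0.42 ± 0.08 on the log2 scale without overlap, a call that library size alone removed.

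Coa3, which stabilises the newly made first core subunit, rose (0.38 ± 0.08, adjusted p = 0.00154 in edgeR), as did the copper protein Cox19 (0.26 ± 0.06, adjusted p = 0.00206), both without overlap. The log2 ratio of Coa3 to Coa5 was -2.80 to -2.70 in normal and -1.78 to -1.33 in tumour areas, a 2.15-fold difference in a pair picked after its values were seen. Cox10, which makes haem O for the enzyme, stood at 0.02 ± 0.05 and Cox7a2l, which joins complexes III and IV into supercomplexes, at 0.16 ± 0.07 (adjusted p = 0.0525 in edgeR). Cox7a2l passed with upper quartile factors, with library size alone, with the area letter as a covariate, and without tumour R2 or R4.

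ATP synthase, complex V, showed no called subunit among 4 tested of 13. Atp5c1, the gamma shaft of the F1 head, had a log2 fold change of -0.14 ± 0.10, Atp5g3, of the membrane rotor ring, 0.04 ± 0.10, and the catalytic subunit Atp5b, under 4 CPM in each area, -0.15 ± 0.28. Atp5mpl, a small membrane subunit, stood at 106 (L4), 129 (R2), 144 (R3), 142 (R4) and 132 (R5) CPM in tumour areas and 117 (L1), 116 (L2), 126.2 (R1) and 121 (R2) CPM in normal areas. L4 lay below and the other tumour areas above all normal ones (0.12 ± 0.09, adjusted p = 0.227 in edgeR, and called without L4, at 0.20). Atp5s, named coupling factor B, stood at 22.3 (L4), 25.7 (R2), 32.0 (R3), 34.7 (R4) and 28.8 (R5) CPM against 38.5 (L1), 36.0 (L2), 40.0 (R1) and 40.3 (R2) CPM. All tumour areas were lower (-0.43 ± 0.12, adjusted p = 0.00891 in edgeR), a call lost with library size alone.

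Over the 5 complexes, 8 of 35 tested subunits were higher and 6 lower, and 2 of 10 tested assembly or coupling factors were higher and 4 lower. Those called were 6 of 18 tested in complex I, 3 of 4 in complex II, 0 of 2 in complex III, 10 of 16 in complex IV and 1 of 5 in complex V. Beside the 74.6% of all tested genes, complex II (75.0%) was at the background and the other complexes were below it. Of 20 called members, 11 kept their call in each of the 19 alternatives: Ndufa4l2, Cox7a1, Cox6a2, Cox6b1, Coa3, Coa5, Cox11, Cox19, Ndufa1, Ndufa2 and Ndufs1. Among the 20, 8 share exon sequence with another gene in a later annotation and none has a close copy elsewhere. Besides Shmt2, partners that moved the same way as the member were Tmco6, next to Ndufa2 (1.10 ± 0.14), and Tarbp1, next to Coa6 (-1.38 ± 0.19), while Eef1b2, next to Ndufs1, moved the other way (0.85 ± 0.34). Their part in the member values was not tested. Across the 45 tested members the log2 fold change fell with transcript length (Spearman rho -0.297), as it did across 7011 tested genes (rho -0.345). The points share the same 9 libraries, and the part of length in the results was not tested.

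Tumour areas differed among themselves more than normal areas. The median coefficient of variation of a member was 13.1% over 5 tumour and 5.33% over 4 normal areas, and 40 of 45 members varied more in tumour. L4 was the lowest of the 5 tumour areas in 38 members and the highest in 2, while R4 was the highest in 22. The median member stood at -0.26 in L4, 0.07 in R2, 0.14 in R3, 0.14 in R4 and 0.03 in R5, as the log2 ratio to the normal mean after adding 0.5 CPM. Over all tested genes the same medians lay between 0.01 and 0.06, with L4 at 0.04.

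L4 also had the highest levels of markers of several other cell types. The sum of the 5 urothelial markers was 1064 CPM in L4, between 12.05 and 187.3 CPM in other tumour areas, and 0.332 to 3.41 CPM in normal areas. The fat markers summed to 745.8 CPM in L4 and 162.7 CPM in R5, but 6.71 to 28.6 CPM in R2, R3 and R4. Macrophage markers, at 1919 CPM, were highest and proximal tubule markers, at 8232 CPM, lowest in L4 among the tumour areas. The part of these cells in the member levels was not tested. Without L4 and R5, 15 of 45 members were higher and 10 lower, and without L4 alone 14 and 10. Over all tested genes 2717 were higher and 2490 lower without L4, against 2760 and 2476 with all areas (39.3% and 35.3%). Those all-gene counts also changed little without L4 and R5. Fewer genes were tested in both settings.

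**Figure D4:**
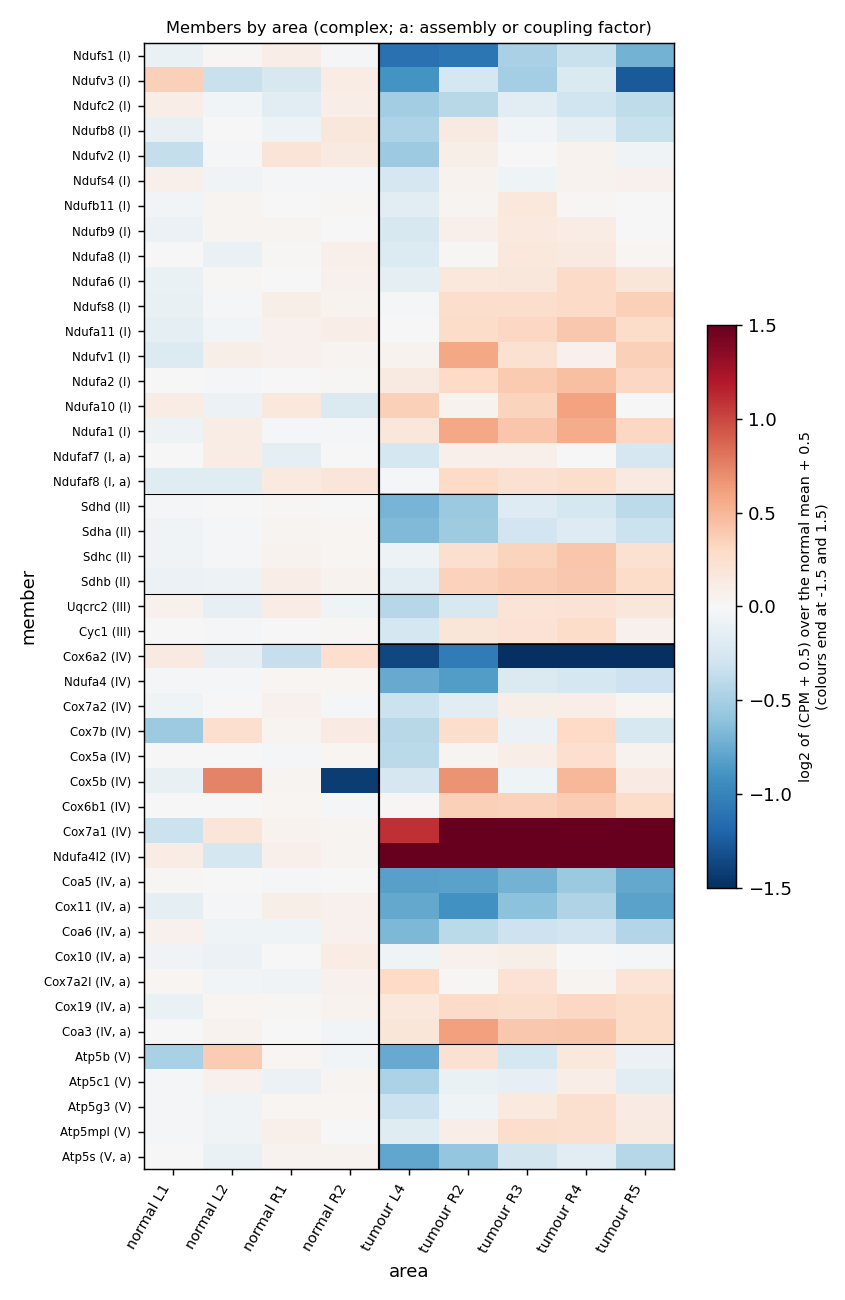
Colour shows the log2 ratio of each tested member (rows, by complex) to the mean of the normal areas, with 0.5 CPM added, in 4 normal and 5 tumour areas (columns), and colours end at -1.5 and 1.5. The L4 column is the lowest tumour column in 38 of 45 rows, and rows of Cox7a1 and Ndufa4l2 are above normal in every tumour area.

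Genes that feed or serve the chain were followed as lists. Of all tested genes 39.3% were higher and 35.3% lower, or 53.2% and 24.1% with library size alone. The 13 genes encoded by mitochondrial DNA were not analysed here. Genes of other inputs to the chain, most of which pass electrons to ubiquinone, were lower in 6 of 7 tested, with none higher (median -0.81). That median is the value of Aldh4a1, which makes NADH and does not pass electrons to ubiquinone. Gpd2, of the glycerol phosphate shuttle, fell by 1.72 ± 0.06 on the log2 scale, from 617 ± 5.79 CPM (SD, n = 4) to 187 ± 13.4 CPM (SD, n = 5), while Sqor, sulfide quinone oxidoreductase, fell from 23.5 ± 2.73 to 8.43 ± 1.70 CPM (-1.48 ± 0.15). Etfa, of the electron transfer flavoprotein, did not pass (0.04 ± 0.15). Of 16 genes of the citric acid cycle and of pyruvate enzymes that feed it, 11 were lower and none higher (median -0.44). With library size alone 7 were lower and 3 higher. Pcx, pyruvate carboxylase, which is not itself a cycle enzyme, fell by 1.36 on the log2 scale. Pdhb, of pyruvate dehydrogenase, fell by 1.10, and citrate synthase, Cs, stood at -0.06 ± 0.06. The difference between these lists and the chain was not tested.

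Among further assembly factors outside the symbol rule, 4 of 14 tested were higher and 2 lower (median 0.11), against 39.3% and 35.3% of all tested genes. Nubpl, which delivers iron-sulfur clusters to complex I, fell from 29.4 ± 2.89 to 16.1 ± 2.39 CPM (-0.87 ± 0.13), and Higd1a, a small protein bound to complex IV, had -0.19 ± 0.07, with its call lost in 9 alternatives and a value of 0.10 with library size alone. Cmc1, a complex IV factor, rose by 0.33 ± 0.09, with its call lost when only areas of letter R were compared, and Ecsit, of complex I assembly, by 0.29 ± 0.11, with its call lost in 7 alternatives. In coenzyme Q synthesis 2 of 7 tested genes were higher and 1 lower: Coq8a, an atypical kinase, rose from 86.5 ± 3.96 to 175 ± 17.1 CPM (1.02 ± 0.08), Coq5 rose by 0.37 ± 0.05, and Coq10b fell by 0.97 on the log2 scale.

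Of 8 genes of ATP export and coupling 3 were higher and 1 lower, against 39.3% and 35.3% of all tested genes. Ucp2, an uncoupling protein homologue also found in leukocytes, rose from 104 ± 7.32 to 375 ± 59.5 CPM (1.85 ± 0.12), and the porin Vdac2 rose by 0.46 ± 0.08. Ckmt1, a mitochondrial creatine kinase, had -0.63 ± 0.21, with its call lost with library size alone, among areas of letter R and without normal R1. The adenine nucleotide carriers Slc25a4 (0.01 ± 0.06) and Slc25a5 (-0.15 ± 0.09) did not pass.

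Of 12 tested regulators of respiration 3 were higher and 4 lower, shares below those of all tested genes (39.3% and 35.3%). Esrrg, an orphan nuclear receptor that drives oxidative genes, fell from 15.1 ± 2.51 to 1.29 ± 0.558 CPM (-3.57 ± 0.26), and the coactivator Ppargc1a from 251 ± 10.9 to 146 ± 24.5 CPM (-0.78 ± 0.11). Gabpa fell by 0.35 and Yy1 by 0.18 on the log2 scale, and with library size alone neither was called, with Yy1 at 0.11. Ppargc1b rose from 7.51 ± 0.956 to 14.0 ± 3.51 CPM (0.90 ± 0.19). Lonp1, a matrix protease that HIF1 is known to induce, rose by 0.36 ± 0.11, and Polg, the polymerase of mitochondrial DNA, by 0.47 ± 0.17, a call lost in 7 alternatives. Nrf1 (0.23), Tfb1m (0.19), Ssbp1 (-0.06), Twnk (-0.13) and Mterf4 (-0.42) did not pass, Esrrb, Gabpb1 and Mterf3 had too few counts, and Polrmt and Polg2 had none.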

How the data were processed

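The 9 libraries were made from poly(A) RNA and sequenced as paired ends, per the labels' protocols. STAR 2.3, HTSeq and edgeR are named with build mm9 in the submitters' processing notes. For annotation, strand setting and filters, nothing is stated. Values in the deposited table are read counts, not normalized, and were checked to be whole numbers. No column lacked a sample, and 14026 of 14052 identifiers matched a symbol.

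All genes were fitted together (edgeR 4.0.16, R 4.3.3): filterByExpr by group (minimum count 10, minimum total 15) left 7020, with TMM factors of 0.89 to 1.17, a quasi-likelihood test with the group as its only term, and Benjamini-Hochberg adjustment over all tested genes. Values after ± are SDs over areas beside CPM and standard errors of the fit beside log2 fold changes. All p-values in the report are adjusted ones of this fit unless an exact permutation test is named. For a gene that was counted, 3 counts, the limit that a 0 allows for counting error only, come to 0.409 to 0.649 CPM. Ratios of members within an area add 2 counts to each gene; the plan had worded this as CPM plus a prior, which would have made the ratio depend on the scaling. The complex and role of each member were assigned by hand. Transcripts, overlaps and near copies (at least 95% identity over 50% of the transcript) come from GENCODE M21 with BLAST 2.17.0 and bedtools 2.31.1. Alternatives used limma 3.58.1 and DESeq2 1.42.0.

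The steps were tested on simulated data of the real libraries, where 50.7% of genes changed 1.5-fold, 80.6% of those changed 2-fold and 89.4% of those changed 4-fold were called, and 5 of 152 calls were of unchanged genes. The simulation changed only a small part of the genes, in both directions, while 74.6% of tested genes were called in the real data. It therefore does not test how calls depend on the scaling. The members, the gene lists and all tests and alternatives, with the rule for naming genes (each tested member, area values for called members of at least 0.5 on the log2 scale, for isoform pairs and for the extremes of each complex, up to 2 called genes a list and direction, and regulators in full), were chosen with earlier results of these data known. Etfa, Cs, Slc25a4 and Slc25a5 were named after their values were seen, to show members that did not pass. Aldh4a1 was named because it sets the median of its list.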

Additional observations from a re-analysis of the deposited data

Results flagged for a closer look

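In 90 groups of values (45 members in 2 groups of areas), 5 had an area whose distance to its nearest neighbour was large against the range of the group, and chance flags about 5% of groups. In 4 of them tumour area L4 stood apart. Ndufv2 was at 16.0 CPM in L4 and at 22.8 to 25.2 CPM in the other tumour areas. Ndufs8 was at 102 CPM in L4 and at 124 to 132 CPM in the others. Sdhb was at 111 CPM in L4 and at 151 to 165 CPM in the others. Ndufa4l2 was at 255 CPM in L4 and at 81.2 to 123 CPM in the others, the only one of the 4 in which L4 was high. In normal area L1, Ndufv1 was at 2.81 CPM, against 3.44 to 3.55 CPM in the other normal areas, from 13 counts.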

How the results depend on the processing

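With library size alone in place of TMM factors, members called higher went from 10 to 28 and members called lower from 10 to 4. In the other mitochondrial lists, with 87 tested genes, those higher went from 16 to 40 and those lower from 34 to 25. Over all 7020 tested genes, calls went from 2760 to 3735 higher and from 2476 to 1689 lower. Under that scaling 3 uncalled members changed sign with a call: Ndufs4 (0.26), Ndufaf7 (0.22) and Cox7a2 (0.24). Of the 25 uncalled members, 5 (Atp5b, Cox5b, Cox7b, Ndufb8 and Ndufv2) passed under none of the 19 alternatives. With 1 area left out, 7 (without normal L1 or L2) to 14 members (without tumour L4) were higher and 10 to 12 lower. Over all tested genes the same settings gave 2588 to 2717 higher and 2333 to 2490 lower. Both isoform ratios kept their direction and call, which the lack of overlap set in advance. They lay at 1.66 to 1.92 for Cox7a1 to Cox7a2 and 3.23 to 3.77 for Ndufa4l2 to Ndufa4 with 1 area left out. Over all alternatives to these ratios, with 0.5 counts added in place of 2 among them, Cox7a1 to Cox7a2 ranged from 1.66 to 2.04. Members under 10 CPM in both groups numbered 9, with standard errors of 0.15 (Ndufaf8) to 0.44 (Cox5b) on the log2 scale. No paired analysis was possible because the groups share only the area name R2 and nothing in the labels pairs areas.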

Other observations

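Genes that make iron-sulfur clusters and haem, the cofactors of complexes I to IV, were lower in 8 of 18 tested and higher in 2. Their median log2 fold change was -0.20, and of all tested genes 35.3% were lower and 39.3% higher. With library size alone 7 were lower and 7 higher, against 24.1% and 53.2% of all tested genes. Cpox, of haem synthesis, fell by 1.26 ± 0.13 on the log2 scale, from 604 ± 23.6 CPM (SD, n = 4) to 252 ± 50.1 CPM (SD, n = 5). Fdx1l, a mitochondrial ferredoxin, rose from 52.0 ± 2.97 to 89.0 ± 7.59 CPM (0.78 ± 0.07). Nfu1, a late factor of cluster delivery, was higher by 0.70 ± 0.23, a call lost without normal R1.

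Of 5 tested antioxidant genes of mitochondria 1 was lower and 2 were higher, against 35.3% and 39.3% of all tested genes. Sod2, the manganese superoxide dismutase, fell from 1245 ± 29.9 to 535 ± 86.8 CPM (-1.22 ± 0.11). Nnt, which makes NADPH from the proton gradient, rose from 340 ± 11.4 to 468 ± 82.4 CPM (0.46 ± 0.12), and Txnrd2 by 0.50 ± 0.14, the latter not called among areas of letter R. Nnt is known to be mutated in some C57BL/6 lines, and strain and tumour cannot be told apart here.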
